A study of Mus musculus with 11 samples.

Results

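The serpins are a family of proteins that share one fold, most of which inhibit serine or cysteine proteases. An inhibitory serpin offers the protease a loop that is cut and then traps the enzyme in a covalent complex, so that each inhibitor molecule is used once. In the kidney the family is known for control of plasmin, thrombin and complement proteases around blood vessels and matrix, and one member that inhibits no protease, Serpinh1 (HSP47), is a collagen chaperone of the endoplasmic reticulum. The members described here are all genes of the deposited gene table whose symbol starts with Serpin, 31 of 13985 genes. Of these, 14 belong to clade A and 8 to clade B, and the rest are spread over clades C to I.

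RNA was measured in 11 libraries of cells labelled as fibroblasts in primary culture, enriched in serum-containing medium after digestion of C57BL/6 mouse kidneys. In unilateral ureteral obstruction (UUO), surgery closes one ureter and the obstructed kidney scars over days. There were 4 libraries from kidneys 7 days after UUO, 4 from kidneys 3 days after UUO and 3 from control kidneys, with no genetic change named in any group. The labels do not state what was done to the control mice, the age of the mice or whether each library is a separate animal, so p-values measure the spread between libraries, which may be technical in part.

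The values are FPKM, fragment numbers scaled for transcript length and library size, and the number of reads behind a value is unknown. Levels can be compared between genes only roughly, since the deposited gene and transcript values of a gene can differ. Serpine2, with a single transcript, averaged 8.12 FPKM at day 7 by gene and 30.2 FPKM by transcript. Levels below are gene values unless transcripts are named. Differences are log2 fold changes of FPKM + 1 from limma, which understate changes of low genes, given with a standard error (SE), and a gene is called where the p adjusted by Benjamini-Hochberg over 13428 genes, those that averaged 0.5 FPKM or more, is under 0.05. Of the 31 serpins, 27 passed that minimum. Serpina3i (mean of 0.473 FPKM), Serpinc1 (0.334), Serpind1 (0.32) and Serpina6 (0.29) did not, while Serpinb6c (0.529) and Serpinb9b (0.539) were the lowest that passed. The table lists only genes that reach 0.5 FPKM on average in some group, so a low member could be listed or tested because of the group where it is high.

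The label was checked against marker genes. The 8 fibroblast markers, Col1a1, Dcn and Pdgfra among them, summed to 1070 to 2730 FPKM at day 7 and 313 to 674 FPKM at day 3, against 37.3 to 48.0 FPKM in controls. The 8 proximal tubule markers summed to 477 to 610 FPKM at day 7 and 837 to 1560 FPKM at day 3, against 11400 to 14000 FPKM in controls, and the 8 macrophage markers to 3950 to 4370 and 2960 to 5030 FPKM, against 607 to 898 FPKM. In controls the tubule markers thus stood far above the fibroblast markers, which goes against the label, and the groups are called here by day and control only. In such mixtures a change in the share of a cell type and a change of RNA per cell cannot be told apart. Among the other lists, distal nephron markers summed to 380 to 484 FPKM at day 7 and 543 to 860 FPKM at day 3, against 1840 to 1980 FPKM in controls, and podocyte markers to 11.4 to 19.5 and 10.8 to 18.2 FPKM, against 105 to 113 FPKM. Red blood cell markers summed to 61.8 to 174 and 53.2 to 375 FPKM, against 2360 to 6370 FPKM, and mesothelial markers to 24.4 to 45.4 and 15.0 to 34.3 FPKM, against 7.01 to 11 FPKM. Krt19 made up most of the mesothelial sums, averaging 26.4 FPKM at day 7 and 20.3 FPKM at day 3, against 5.31 FPKM in controls. Upk3b averaged less at day 3 than in controls (0.806 against 2.75 FPKM). Of 3 mesothelial markers tested, 2 rose and 0 fell at day 7, and 1 rose and 1 fell at day 3. Endothelial markers (44.9 to 72.7 and 48.4 to 59.7 FPKM, against 42.1 to 46.6 FPKM) and neutrophil markers (40.3 to 86.6 and 16.8 to 163 FPKM, against 33.8 to 42.0 FPKM) differed less, and 3 lymphocyte markers in the table were low throughout (2.40 to 4.29 and 1.27 to 1.78 FPKM, against 5.33 to 7.53 FPKM). Mitochondrial genes took 4.27 to 7.94% of summed FPKM at day 7 and 6.06 to 7.29% at day 3, against 25.4 to 35.9% in controls.

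One library stood apart for these genes. Day 3 replicate 1 had 261 FPKM of Alb (albumin), against at most 3.04 FPKM in any other library, and 24 of 30 transcripts of a liver list were highest in it. Of 13 listed liver-type serpins, most of them plasma proteins of hepatocytes, 10 were highest there, and 4 were at least 10 times the next library. Of the 18 other serpins, 0 had their highest value in it. Results of the liver-type serpins are therefore given with and without that library.

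More serpins were higher than lower after obstruction. All 31 together summed to 716 ± 201 FPKM at day 7 (SD, n = 4) and 437 ± 87.3 FPKM at day 3 (n = 4), against 218 ± 12.7 FPKM in controls (n = 3). At day 7 Serpinh1 (21.4% of the sum), Serping1 (20.5%) and Serpinf1 (12.9%) were prominent. At day 3 Serpinh1 made up 20.9% and Serping1 12.4%. In controls the first was Serpinf2 with 33.8%, followed by Serpinh1 with 23.6%.

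At day 7 against control, 16 of the 27 tested serpins rose and 3 fell, 70.4% called against a background of 69.8% over all genes tested (46.3% higher and 23.5% lower). At day 3 against control, 15 rose and 4 fell, again 70.4%, against a background of 65.3% (44.4% higher and 21% lower). Being called at all was thus about as frequent among serpins as among all genes. At day 7 against day 3, 7 rose and 2 fell, 33.3% called against a background of 15.7% (7.37% higher and 8.37% lower). The median log2 fold change of the tested serpins was 1.01, 0.81 and 0.11 in these 3 comparisons, where that of all genes was 0.28, 0.26 and -0.04. Serpina1c, Serpina1e, Serpina3k and Serpina3m reached the minimum only through day 3 replicate 1. Without that library and these 4 genes, 16 of 23 rose and 4 fell at day 7, 15 rose and 4 fell at day 3, and 7 rose and 5 fell between the days. Serpinb6c and Serpinb9b, counted among the rises at day 7 and between the days, reached the minimum only through their day 7 values. The centre of all genes depends on the scaling: with every library centred on its median, the day 3 split was 11 higher and 5 lower, and 44.3% of all genes called at day 3 were higher, against 67.9% as deposited (at day 7 47.7%, against 66.3%). With values rescaled to TPM, 8 serpins rose and 4 fell between the days.

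By the liver list, the 17 tested serpins outside the liver list held most of the rises. Of these, 15 rose and 0 fell at day 7 against control (median log2 fold change 1.53). Of all genes, 46.3% rose and 23.5% fell there (median 0.28). At day 3 against control, 14 rose and 1 fell (median 1.22), where 44.4% of all genes rose and 21% fell (0.26). Among the 10 tested liver-type serpins, 1 rose and 3 fell at either day. Serpina10 rose, and Serpinf2, Serpina1d and Serpina1f fell. Of these, only Serpina1d had its highest value in day 3 replicate 1. Without that library, among the 6 that reached the minimum without it, 1 rose and 4 fell at either day. Both day comparisons share the 3 control libraries.

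**Figure D1:**
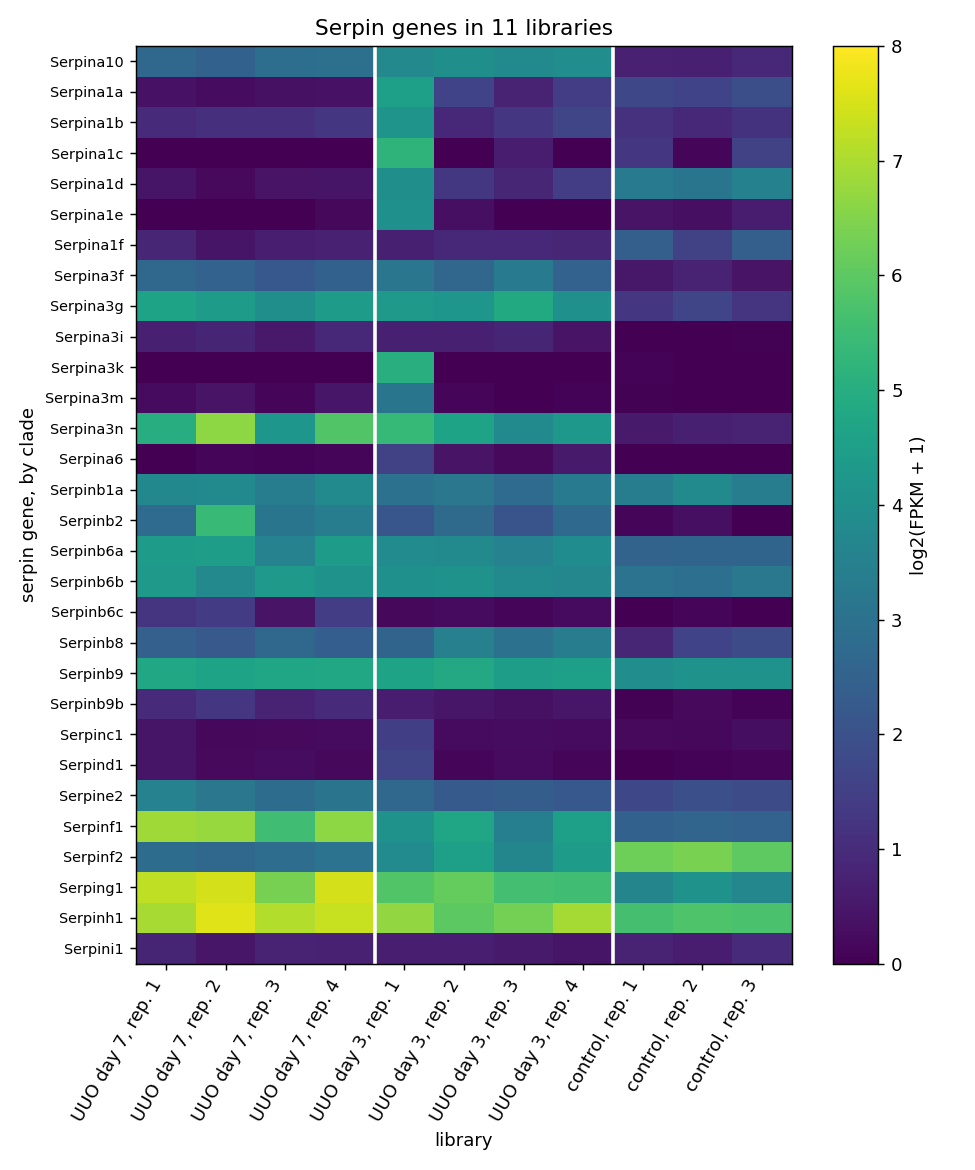
Level of each of 30 serpin genes (rows, by clade) in each of the 11 libraries (columns, UUO day 7, UUO day 3, control, with white lines between groups), as log2(FPKM + 1) in colour. Serpinf1, Serping1 and Serpinh1 are brightest at day 7, Serpinf2 and Serpina1f in controls, and the other Serpina1 genes and Serpina3k in day 3 replicate 1.

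Serpine2 (protease nexin 1), an inhibitor of thrombin and urokinase, rose in steps. Its day 7 libraries held 10.7, 8.10, 6.11 and 7.53 FPKM and its day 3 libraries 5.40, 3.85, 4.10 and 3.58 FPKM, against 2.33, 2.87 and 2.66 FPKM in controls. The 3 groups did not overlap. It rose by 1.31 (SE 0.17, adjusted p = 1.73e-05) at day 7 and by 0.52 (SE 0.17, adjusted p = 0.0148) at day 3 on the log2 scale, and day 7 was above day 3 by 0.79 (SE 0.15, adjusted p = 0.00485). The day 3 call was lost without control replicate 1 (0.46, adjusted p = 0.0596) and with every library centred on its median (0.19, adjusted p = 0.335).

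Of the plasminogen activators, Plat, the tissue-type enzyme, averaged 30.7 ± 2.91 FPKM at day 7 and 19.5 ± 2.66 FPKM at day 3, against 17.2 ± 2.22 FPKM in controls (SD, n = 4, 4 and 3). It rose at day 7 (log2 fold change 0.80, adjusted p = 0.000171), while at day 3 the value was 0.17 (adjusted p = 0.27). Plau, the gene of urokinase, which Serpine2 inhibits, named here after its values were seen, averaged 233 ± 16.3 FPKM at day 7 and 330 ± 31.7 FPKM at day 3, against 241 ± 20.7 FPKM in controls. Its log2 fold change was -0.05 (adjusted p = 0.7) at day 7 and 0.45 (adjusted p = 0.00384) at day 3.

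Serpinf2 encodes alpha-2-antiplasmin, the direct inhibitor of plasmin, and is known in mice from both liver and kidney. It had 6.11, 5.45, 6.30 and 7.29 FPKM at day 7 and 13.4, 22.0, 11.7 and 20.5 FPKM at day 3, against 74.2, 83.0 and 64.2 FPKM in controls. The 3 groups were fully apart, with day 7 lowest. It fell by 3.36 at day 7 (log2, SE 0.20, adjusted p = 4.43e-08) and by 2.10 at day 3 (SE 0.20, adjusted p = 2.08e-06), and day 7 was below day 3 (-1.26, SE 0.18, adjusted p = 0.00111). Without day 3 replicate 1 the day 3 value was -2.01, and that library, at 13.4 FPKM, lay within the range of the other day 3 libraries. Serpinf2 moved with the proximal tubule markers, of which 8 of 8 fell in each of the 3 comparisons. Their part in the result was not tested.

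Serpinf1, its neighbour on chromosome 11, moved the other way. The deposited coordinates (GRCm38) are chr11:75409769-75422701 for Serpinf1 and chr11:75431732-75439591 for Serpinf2. Serpinf1 encodes pigment epithelium-derived factor, a secreted serpin without known protease inhibition that restrains vessel growth. It had 115, 108, 46.2 and 99.7 FPKM at day 7 and 16.3, 25.3, 9.90 and 22.1 FPKM at day 3, against 4.55, 5.14 and 4.77 FPKM in controls. The 3 groups did not overlap, and within UUO the lowest library of each day, replicate 3, also had the lowest sum of fibroblast markers of its day (1070 FPKM at day 7 and 313 FPKM at day 3). Serpinf1 rose by 3.92 (SE 0.33, adjusted p = 5.17e-07) at day 7 and by 1.66 (SE 0.33, adjusted p = 0.000692) at day 3, and its difference between the days, 2.26 (SE 0.30, adjusted p = 0.000727), was the largest of the 27 tested serpins. In the deposited transcript table, where the gene has a single transcript, its means were 52.4, 9.02 and 5.19 FPKM at day 7, at day 3 and in controls, and the rises were smaller, 3.07 (adjusted p = 2.2e-07) at day 7 and 0.69 (adjusted p = 0.0163) at day 3; why the 2 tables differ was not tested. No 50-base stretch of Serpinf1 or Serpinf2 transcripts was found in another protein-coding gene of the annotation.

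**Figure D2:**
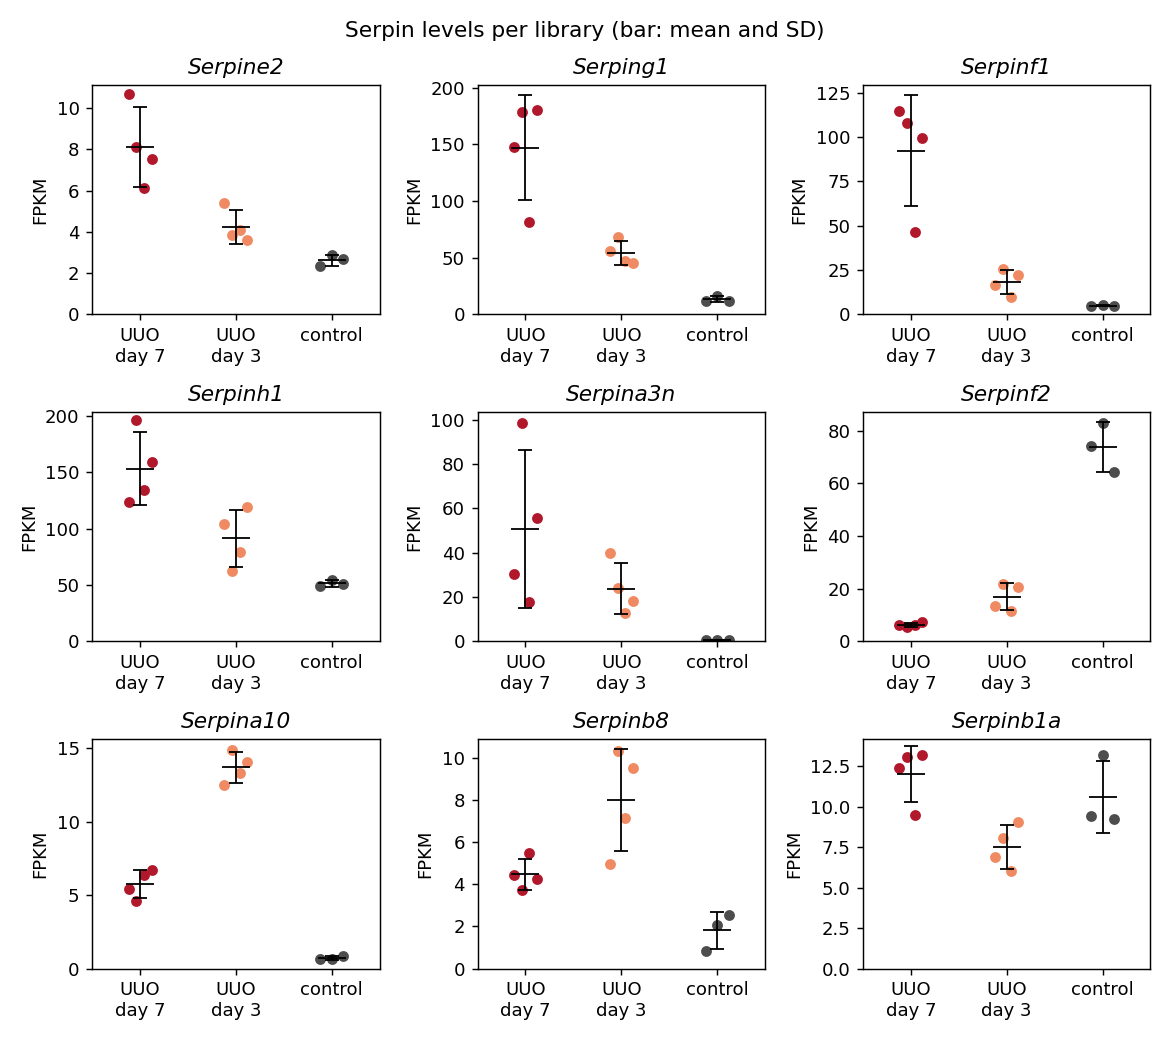
FPKM of 9 serpins per library (points) in UUO day 7, UUO day 3 and control, with the group mean and SD as bars; each y axis starts at 0. Serpine2, Serping1, Serpinf1, Serpinh1 and Serpina3n are highest on average at day 7, Serpina10 and Serpinb8 at day 3, and Serpinf2 in controls (64.2 to 83.0 FPKM), and Serpinb1a is lowest at day 3.

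Serping1 encodes the C1 inhibitor, which controls the complement proteases C1r and C1s and the contact system. It had 148, 179, 81.4 and 180 FPKM at day 7 and 55.7, 67.8, 47.3 and 45.3 FPKM at day 3, against 11.4, 16.1 and 12.1 FPKM in controls. All day 7 libraries were above all day 3 libraries, and these above all controls. The log2 fold change was 3.33 (SE 0.25, adjusted p = 2.55e-07) at day 7 and 1.95 (SE 0.25, adjusted p = 2.65e-05) at day 3, with 1.38 (SE 0.23, adjusted p = 0.00227) between the days. The genes of its 2 target proteases rose as well. C1s1 averaged 83.0 ± 21.2 FPKM at day 7 and 22.7 ± 6.88 FPKM at day 3, against 4.65 ± 0.475 FPKM in controls (adjusted p = 6.04e-08 and 1.25e-05). C1ra averaged 34.6 ± 10.0 and 18.2 ± 3.00 FPKM, against 3.39 ± 0.454 FPKM (adjusted p = 1.75e-07 and 3.67e-06).

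Serpinh1, the collagen chaperone, had the highest mean gene value of the serpins at both days of UUO, within the spread of Serping1 at day 7. It had 124, 196, 134 and 159 FPKM at day 7 and 104, 62.8, 79.4 and 119 FPKM at day 3, against 48.9, 54.8 and 51.2 FPKM in controls. Groups did not overlap, although 124 FPKM at day 7 and 119 FPKM at day 3 were close. It rose by 1.53 (SE 0.21, adjusted p = 3.26e-05) at day 7 and by 0.77 (SE 0.21, adjusted p = 0.00606) at day 3, and by 0.76 (SE 0.19, adjusted p = 0.0199) between the days. The last call was lost when day 3 replicate 2 (0.60, adjusted p = 0.0546), day 7 replicate 2 (0.63, adjusted p = 0.0503) or day 7 replicate 4 (0.74, adjusted p = 0.0557) was left out. With median centring the day 3 value was 0.44 (adjusted p = 0.0949).

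Collagen genes, whose products HSP47 helps to fold, had larger fold changes, a difference that was not itself tested. Col1a1 averaged 1240 ± 452 FPKM at day 7 and 295 ± 95.3 FPKM at day 3, against 15.2 ± 4.16 FPKM in controls, and Col3a1 788 ± 295 and 226 ± 61.2 FPKM, against 10.1 ± 1.83 FPKM. Their log2 fold changes at day 7 were 6.18 (adjusted p = 3.97e-08) and 6.05 (adjusted p = 2.69e-08). Of 24 genes for collagens (Col4a1 among them) and for protein folding and modification, 21 rose and 1 fell at day 7 against control. At day 3, 19 rose and 0 fell, and 13 rose and 0 fell between the days. That is 91.7%, 79.2% and 54.2% called, against 69.8%, 65.3% and 15.7% of all genes, with medians of 1.57, 1.03 and 0.63. The one lower gene was Tmem38b, an endoplasmic reticulum ion channel (-0.28, adjusted p = 0.0244), and P4ha3, a collagen prolyl hydroxylase subunit, stood at 5.73 ± 2.45 FPKM at day 7 and 0.667 ± 0.152 FPKM at day 3, against 0.0247 ± 0.00712 FPKM in controls.

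The deposited transcript table splits Serpinh1 further. Transcripts 201 and 203 carry the same coding sequence of 1251 bases in the GENCODE annotation on the minus strand of chromosome 7, but 201 begins at 99353239 and 203 at 99353114, and 203 has 6 exons where 201 has 5. Transcript 201 took 68.1, 57.6, 20.0 and 56.8% of summed Serpinh1 transcript FPKM at day 7 and 30.3, 65.9, 21.4 and 31.1% at day 3, against 11.8, 15.1 and 12.9% in controls. Transcript 203 took 15.9, 31.7, 72.4 and 33.4% at day 7 and 61.9, 20.3, 72.5 and 59.9% at day 3, against 81.4, 76.3 and 78.7% in controls. All UUO libraries had a larger share of 201 than any control, with replicate 3 nearest to the controls at both days. Shares of overlapping transcripts are estimates of the assembler, and they were not tested.

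**Figure D3:**
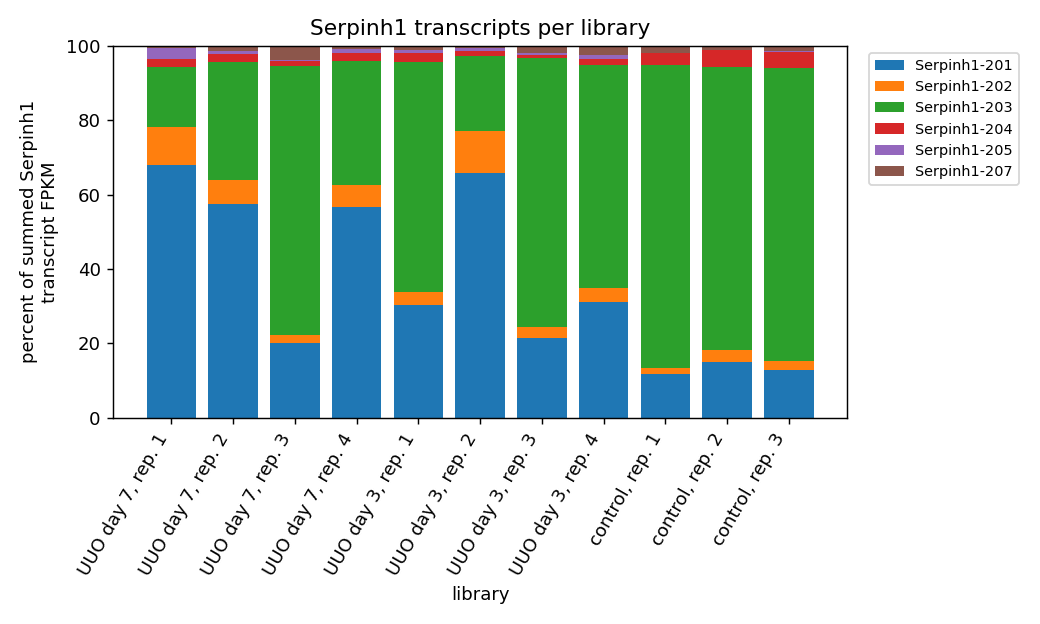
Percent of summed Serpinh1 transcript FPKM assigned to each annotated transcript (colours) in each library (bars, UUO day 7, UUO day 3, control). Transcript 201 (bottom segment) runs from 20.0 to 68.1% at day 7 and from 21.4 to 65.9% at day 3, against 11.8 to 15.1% in controls.

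The clade A genes lie together. All 14 occupy 800 kb of chromosome 12 (chr12:103614786-104414329, GRCm38), and all 14 genes of the table within that span are serpins. In order along the chromosome they hold Serpina10, Serpina6, the Serpina1 group and the Serpina3 group. Within the cluster 4 of 12 tested genes rose and 2 fell at each day against control. Of all genes, 46.3% rose and 23.5% fell at day 7, and 44.4% rose and 21% fell at day 3. Serpina1c, Serpina1e, Serpina3k and Serpina3m, among the 12, were tested only through day 3 replicate 1. The cluster genes that rose were Serpina3f, Serpina3g and Serpina3n of the last group and Serpina10, the first gene.

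Serpina3n is the mouse relative of human alpha-1-antichymotrypsin, an acute-phase inhibitor that also binds granzyme B. Its levels were 30.4, 98.6, 17.6 and 55.8 FPKM at day 7 and 39.7, 24.2, 13.0 and 18.4 FPKM at day 3, against 0.478, 0.624 and 0.712 FPKM in controls. UUO libraries of both days overlapped with each other and stood well above the controls. It had the largest rise of the tested serpins, 4.73 (SE 0.48, adjusted p = 2.5e-06) at day 7 and 3.84 (SE 0.48, adjusted p = 1.86e-05) at day 3, and the difference of 0.89 between the days had an adjusted p of 0.202. Day 3 replicate 1 was the highest of its group, and without it the day 3 value was 3.57 (adjusted p = 6.39e-05). The difference between the days passed the threshold without day 7 replicate 3 (1.29, adjusted p = 0.0428).

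Serpina3g, known as Spi2A, inhibits cysteine cathepsins inside leukocytes. It had 24.1, 20.2, 14.9 and 20.0 FPKM at day 7 and 18.7, 17.3, 28.1 and 15.0 FPKM at day 3, against 1.42, 2.19 and 1.37 FPKM in controls. The libraries of the UUO days overlapped and their means were equal at 19.8 FPKM. The log2 fold change was 2.96 (SE 0.21, adjusted p = 1.32e-07) at day 7 and 2.94 (SE 0.21, adjusted p = 2.44e-07) at day 3. Serpina3f followed at a lower level, with 5.53, 4.71, 3.63 and 4.55 FPKM at day 7 and 7.78, 5.28, 9.15 and 4.69 FPKM at day 3, against 0.429, 0.690 and 0.334 FPKM in controls. It rose by 1.91 (SE 0.20, adjusted p = 2.87e-06) and 2.35 (SE 0.20, adjusted p = 8.26e-07). Serpina3i, below the minimum for testing, ran from 0.471 to 0.915 FPKM at day 7 and from 0.347 to 0.757 FPKM at day 3, while controls were listed at 0, 0 and 0.0219 FPKM.

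The macrophage markers also rose at both days against control, 8 of 8 symbols. Day 3 replicate 3, highest of the 11 libraries for both serpins, was also highest for the summed macrophage markers (5030 FPKM) and neutrophil markers (163 FPKM). Within day 7 the order was the reverse: replicate 3, lowest for both serpins, had the highest macrophage sum (4370 FPKM), and replicate 1, highest for both, had the lowest (3950 FPKM). The part of these cells in the result was not tested. Ctss, a cysteine cathepsin of antigen-presenting cells, averaged 713 ± 92.1 FPKM at day 7 and 680 ± 172 FPKM at day 3, against 54.4 ± 8.02 FPKM in controls (log2 fold changes 3.69 and 3.60, adjusted p = 1.53e-08 and 3.03e-08). Ctsb, a cathepsin that Spi2A inhibits, named after its values were seen, averaged 338 ± 43.2 and 347 ± 50.6 FPKM, against 109 ± 11.9 FPKM (1.62 and 1.66, adjusted p = 8.7e-07 and 1.09e-06).

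Promoters of these 4 Serpina3 genes are shown because 3 of them share a motif and all 4 had higher values in every UUO library than in any control. Each is 250 bases before to 50 bases after a RefSeq start on the plus strand of GRCm38.p6, at chr12:104214294-104214593 for Serpina3f, chr12:104235897-104236196 for Serpina3g, chr12:104262872-104263171 for Serpina3i and chr12:104406458-104406757 for Serpina3n. Capitals mark matches to TTCNNNGAA, the gamma-activated sequence bound by STAT dimers, which reads alike on both strands.
Serpina3f: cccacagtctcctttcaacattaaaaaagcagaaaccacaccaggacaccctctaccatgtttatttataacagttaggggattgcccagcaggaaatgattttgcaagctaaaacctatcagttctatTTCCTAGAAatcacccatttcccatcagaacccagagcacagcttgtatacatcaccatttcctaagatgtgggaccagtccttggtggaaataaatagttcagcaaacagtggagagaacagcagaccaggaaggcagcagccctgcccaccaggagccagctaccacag
Serpina3g: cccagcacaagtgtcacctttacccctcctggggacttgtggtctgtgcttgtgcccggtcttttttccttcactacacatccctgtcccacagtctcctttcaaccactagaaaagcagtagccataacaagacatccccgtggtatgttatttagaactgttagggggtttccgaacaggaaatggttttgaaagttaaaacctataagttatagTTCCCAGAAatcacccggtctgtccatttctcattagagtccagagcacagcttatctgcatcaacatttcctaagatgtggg
Serpina3i: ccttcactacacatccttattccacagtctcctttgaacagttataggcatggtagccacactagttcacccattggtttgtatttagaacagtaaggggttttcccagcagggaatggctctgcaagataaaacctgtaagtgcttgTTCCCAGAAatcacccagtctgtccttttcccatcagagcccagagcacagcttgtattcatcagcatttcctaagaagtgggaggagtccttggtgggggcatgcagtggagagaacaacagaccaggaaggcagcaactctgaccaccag
Serpina3n: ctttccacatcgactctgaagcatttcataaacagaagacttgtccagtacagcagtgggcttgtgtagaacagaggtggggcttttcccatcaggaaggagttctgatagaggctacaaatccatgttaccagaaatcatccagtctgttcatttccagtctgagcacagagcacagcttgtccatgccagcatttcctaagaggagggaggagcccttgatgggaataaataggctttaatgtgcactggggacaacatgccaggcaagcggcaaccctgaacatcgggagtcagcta

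The match began at position -121 in Serpina3f, -33 in Serpina3g and -102 in Serpina3i, counted from the RefSeq start. A second RefSeq start of Serpina3f, with the window chr12:104214383-104214682, puts the same match at -210. Serpina3n had no match in this window. Among all 32544 promoters of the RefSeq table, 8.33% held one. Promoters were found for 24 of the 31 serpins, and 6 of these held a match. Besides the Serpina3 genes, they were Serpinb2 and Serpinb6a, which rose at both days, and Serpina1f, which fell. Serpina1f changed by -1.47 at day 7 and -1.30 at day 3. Whether a match goes with a rise was not tested. Other motifs were scanned in the same 24 genes and are not shown: AP-1 (in 6), a heat shock motif (1), the TATA box (3) and the CCAAT box (10). The promoters of Serpina3f and Serpina3i were 67.7% identical when aligned, those of Serpina3g and Serpina3i 50.4% and those of Serpina3f and Serpina3g 42.5%. In Serpina3f, Serpina3g and Serpina3i the match is followed by the same letters, atcaccc, so their matches are not independent of each other. A match of letters is no measure of binding.

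Serpina10 encodes the protein Z-dependent inhibitor of coagulation factor Xa, made by liver. It had 5.44, 4.58, 6.34 and 6.70 FPKM at day 7 and 12.5, 14.9, 13.3 and 14.1 FPKM at day 3, against 0.673, 0.634 and 0.866 FPKM in controls. The groups were fully apart, with day 3 highest. It rose by 1.96 (SE 0.13, adjusted p = 7.5e-08) at day 7 and by 3.09 (SE 0.13, adjusted p = 1.04e-08) at day 3, and was lower at day 7 than at day 3 (-1.13, SE 0.12, adjusted p = 0.000212). It was the only tested serpin to rise at both days and fall between them. Although it belongs to the liver list, its value in replicate 1 was the lowest of the 4 day 3 libraries, and the day 3 value without that library was 3.13 (adjusted p = 8.87e-08).

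The other liver-type serpins of the cluster, apart from Serpina1f, had their highest values in day 3 replicate 1. Serpina3k, a hepatocyte serpin, was at 32.0 FPKM in that library and at most 0.0564 FPKM elsewhere, being listed at 0 in all day 7 libraries, in day 3 replicates 3 and 4 and in control replicates 2 and 3. The deposited locus of Serpina3m starts at the same base as that of Serpina3k and contains it, so reads could be split between them, and Serpina3m had 7.57 FPKM there against at most 0.389 FPKM elsewhere. Serpina1c, an alpha-1-antitrypsin gene, had 35.8 FPKM there, and 1.90 FPKM was its next highest value, in control replicate 3. Serpina1e had 15.0 FPKM there and at most 0.514 FPKM elsewhere.

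**Figure D4:**
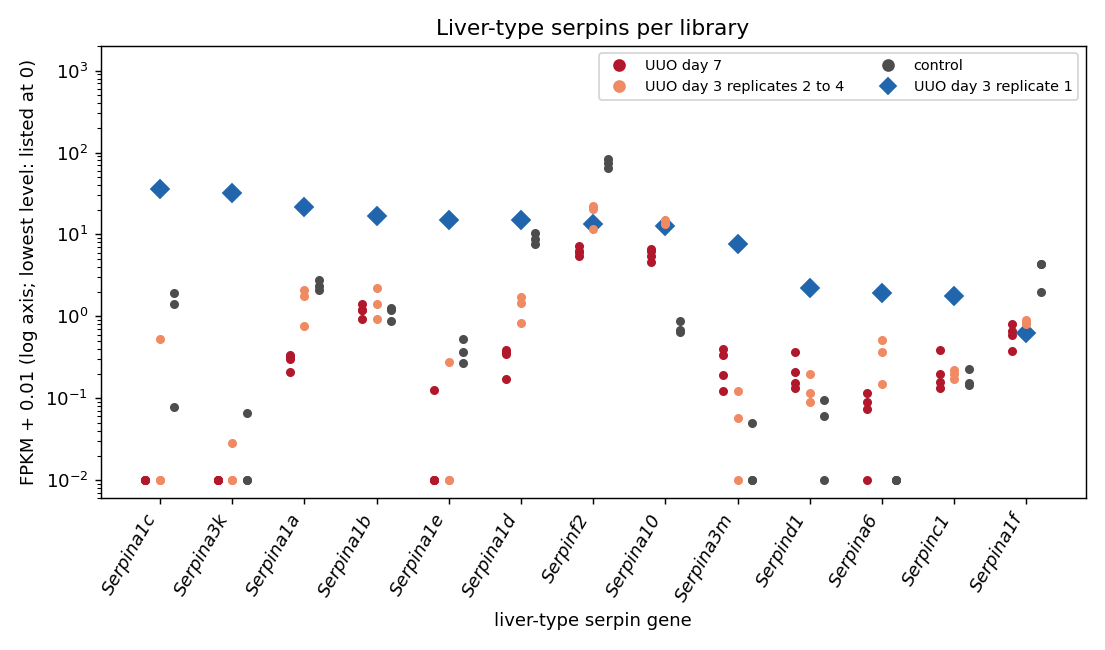
FPKM plus 0.01 on a log axis for the 13 liver-type serpins in UUO day 7 (left of each gene), UUO day 3 (centre) and control (right); day 3 replicate 1 is the diamond, and points at the bottom are values listed at 0. The diamond is highest for 10 of the 13 genes; Serpinf2, Serpina10 and Serpina1f are the others.

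Alpha-1-antitrypsin, the main elastase inhibitor of plasma, is encoded in the mouse by several near copies. Of 50-base stretches of their transcripts, 74.2% in Serpina1c, 57.6% in Serpina1a, 50.9% in Serpina1d, 34.6% in Serpina1e and 29.5% in Serpina1b occur in another gene, and the locus of Serpina1b spans that of Serpina1d, so single values within the group are uncertain. Serpina1d was the copy with the highest control values. It had 0.356, 0.161, 0.339 and 0.383 FPKM at day 7 and 14.9, 1.46, 0.826 and 1.73 FPKM at day 3, against 8.77, 7.65 and 10.4 FPKM in controls. Apart from day 3 replicate 1, every UUO library was under every control. It fell by 2.92 at day 7 (SE 0.55, adjusted p = 0.000436) and by 1.40 at day 3 (SE 0.55, adjusted p = 0.0395). Without day 3 replicate 1 these values were -2.92 (adjusted p = 6.97e-08) and -2.10 (adjusted p = 1.6e-06). With that library kept, the day 3 call was lost when any one control library, any one of the other 3 day 3 libraries or day 7 replicate 1 was left out (-1.50 to -1.06, adjusted p = 0.0505 to 0.112).

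Serpina1a and Serpina1b had 21.8 and 16.8 FPKM in day 3 replicate 1. Elsewhere Serpina1a had 0.201 to 0.323 FPKM at day 7 and 0.753 to 2.07 FPKM at day 3, against 2.07 to 2.80 FPKM in controls. With all libraries it was called at neither day, with -1.40 (adjusted p = 0.0645) at day 7 and 0.34 (adjusted p = 0.651) at day 3. Without that library it fell at day 7 (-1.40, adjusted p = 1.8e-05) and at day 3 (-0.46, adjusted p = 0.0419). Serpina1c and Serpina1e reached the minimum for testing only through that library, so no call is given for them without it; their values then were -0.97 and -0.42 at day 7 and -0.76 and -0.34 at day 3. For Serpina1b the values without it were 0.04 (adjusted p = 0.836) and 0.22 (adjusted p = 0.281).

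The promoters of Serpina1a and Serpina1d are shown to compare these copies, which differed in control level. They come from the RefSeq table on the minus strand of GRCm38.p6, at chr12:103863570-103863869 and chr12:103773584-103773883, and were 89.8% identical when aligned. Capitals mark letters that differ from the other copy or are missing in it.
Serpina1a: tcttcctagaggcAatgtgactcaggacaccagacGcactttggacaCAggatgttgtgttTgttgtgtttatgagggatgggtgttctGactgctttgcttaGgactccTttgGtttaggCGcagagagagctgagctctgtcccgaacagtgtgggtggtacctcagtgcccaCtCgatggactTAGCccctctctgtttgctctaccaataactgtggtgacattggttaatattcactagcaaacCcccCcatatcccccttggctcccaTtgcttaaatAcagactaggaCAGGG
Serpina1d: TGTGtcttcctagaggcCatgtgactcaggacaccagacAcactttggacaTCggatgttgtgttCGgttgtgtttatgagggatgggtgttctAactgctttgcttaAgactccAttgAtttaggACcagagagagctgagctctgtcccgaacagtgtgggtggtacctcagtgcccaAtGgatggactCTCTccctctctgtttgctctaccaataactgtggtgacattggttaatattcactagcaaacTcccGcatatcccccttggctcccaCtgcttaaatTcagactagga

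Serpina1f, a further member whose transcripts hold no 50-base stretch of another gene, was not raised in day 3 replicate 1. It had 0.805, 0.364, 0.590 and 0.659 FPKM at day 7 and 0.613, 0.901, 0.843 and 0.797 FPKM at day 3, against 4.33, 1.99 and 4.37 FPKM in controls. Both UUO groups lay below the controls. It fell by 1.47 (SE 0.18, adjusted p = 1.67e-05) and by 1.30 (SE 0.18, adjusted p = 5.48e-05), and the difference between the days was -0.16 (adjusted p = 0.563). The proximal tubule markers also fell at both days against control, and their part was not tested; between the days 8 of 8 of them fell further, and in control replicate 2, where Serpina1f was lowest of the controls, their sum was 14000 FPKM, as in replicate 1.

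The 3 remaining liver-type serpins were too low to test. Serpinc1 (antithrombin) had 1.78 FPKM in day 3 replicate 1 and at most 0.38 FPKM elsewhere. For Serpind1 (heparin cofactor II) the values were 2.19 and at most 0.359 FPKM, and for Serpina6, the corticosteroid-binding globulin, 1.94 and at most 0.507 FPKM.

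Clade B serpins stay inside the cell, and 7 of 8 rose at day 7 against control and 6 of 8 at day 3, with 1 lower at day 3, where 46.3% and 44.4% of all genes rose. Serpinb6c and Serpinb9b, among those counted as higher at day 7, were tested only through their day 7 values. Serpinb9, the inhibitor of granzyme B, had the highest gene value of the clade in controls. It had 26.1, 24.1, 25 and 27 FPKM at day 7 and 23.9, 27.5, 21.4 and 21.8 FPKM at day 3, against 14.3, 16.3 and 16.1 FPKM in controls. UUO libraries were all above controls and overlapped between days. The rise was small, 0.68 (SE 0.11, adjusted p = 0.000147) and 0.57 (SE 0.11, adjusted p = 0.000701), and with median centring the day 3 value was 0.23 (adjusted p = 0.0637). Gzmb itself, named after its values were seen, averaged 0.171 ± 0.114 FPKM at day 7 and 0.193 ± 0.0904 FPKM at day 3, against 1.45 ± 0.217 FPKM in controls, lower at both days (adjusted p = 2.16e-06 and 3.69e-06).

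Serpinb2 encodes a mostly intracellular serpin that can inhibit urokinase. It had 5.90, 40.6, 7.57 and 9.42 FPKM at day 7 and 3.44, 5.81, 3.26 and 5.63 FPKM at day 3, against 0.0826, 0.258 and 0 FPKM in controls. Day 7 replicate 2 was far above the rest, as it was for Serpina3n (98.6 FPKM). The log2 fold change was 3.51 (SE 0.48, adjusted p = 3.08e-05) at day 7 and 2.29 (SE 0.48, adjusted p = 0.00106) at day 3.

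Serpinb6a, an inhibitor of cathepsin G, had 20.1, 21.4, 10.6 and 20.2 FPKM at day 7 and 13.4, 13.1, 10.8 and 13.8 FPKM at day 3, against 4.81, 4.96 and 4.91 FPKM in controls. It rose at both days (1.65 and 1.22, SE 0.20 each, adjusted p = 1.07e-05 and 0.000156). Its difference between the days passed the threshold without day 7 replicate 3 (0.65, adjusted p = 0.00165) and not with it (0.43, adjusted p = 0.138). The related Serpinb6b had 18.9, 12.5, 19.0 and 15.9 FPKM at day 7 and 15.3, 15.9, 12.8 and 12 FPKM at day 3, against 7.24, 6.60 and 8.20 FPKM in controls. It rose by 1.06 (SE 0.15, adjusted p = 5.39e-05) and 0.84 (SE 0.15, adjusted p = 0.000406). UUO libraries of both genes were all above controls.

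Serpinb8, which inhibits the convertase furin, ranked its groups differently, with day 3 above day 7. It had 4.43, 3.73, 5.48 and 4.25 FPKM at day 7 and 4.97, 10.3, 7.14 and 9.50 FPKM at day 3, against 0.811, 2.07 and 2.54 FPKM in controls. Both days were above control (1.01, SE 0.25, adjusted p = 0.00304, and 1.69, SE 0.25, adjusted p = 7.59e-05). The difference between the days was -0.68 (adjusted p = 0.0672), or -0.86 (adjusted p = 0.0248) without day 3 replicate 1.

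Serpinb1a, an inhibitor of neutrophil elastase, was the one clade B gene lower at day 3. It had 12.4, 13.1, 9.50 and 13.2 FPKM at day 7 and 6.91, 8.09, 6.02 and 9.08 FPKM at day 3, against 9.42, 13.2 and 9.24 FPKM in controls. All day 3 libraries were below all others, though 9.08 FPKM at day 3 and 9.24 FPKM in controls were close. Day 3 was below control by -0.44 (SE 0.17, adjusted p = 0.0326), and day 7 was above day 3 by 0.62 (SE 0.15, adjusted p = 0.018). The first call was lost without control replicate 2 (-0.29, adjusted p = 0.152), without day 3 replicate 1 (-0.41, adjusted p = 0.0734) or 3 (-0.35, adjusted p = 0.0829) and when values were rescaled to TPM (-0.06, adjusted p = 0.746). The second was lost without day 7 replicate 4 (0.57, adjusted p = 0.0574). Day 7 against control was not called with values as deposited (0.17, adjusted p = 0.367). It was called higher when values were rescaled to TPM (0.65, adjusted p = 0.00405).

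Serpinb9b and Serpinb6c were the lowest tested members of the clade. Serpinb9b had 0.988, 1.43, 0.700 and 0.953 FPKM at day 7 and 0.562, 0.386, 0.280 and 0.385 FPKM at day 3, against 0.0301, 0.147 and 0.0634 FPKM in controls. It rose at day 7 (0.89, adjusted p = 2.93e-05) and at day 3 (0.38, adjusted p = 0.0153), and the day 3 call was lost with median centring (0.04, adjusted p = 0.778) and without control replicate 1 (0.34, adjusted p = 0.0572). Serpinb6c had 1.37, 1.69, 0.347 and 1.74 FPKM at day 7 and 0.116, 0.183, 0.0820 and 0.179 FPKM at day 3, while controls were at 0, 0.109 and 0 FPKM. It rose at day 7 against control (1.09, SE 0.20, adjusted p = 0.000362) and against day 3 (0.95, SE 0.19, adjusted p = 0.00479). At day 3 the value was 0.14 (adjusted p = 0.56), and its sign turned with median centring.

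Serpini1 (neuroserpin), a brain inhibitor of tissue plasminogen activator, was near the minimum in all libraries. It ranged from 0.385 to 0.781 FPKM at day 7 and from 0.362 to 0.593 FPKM at day 3, against 0.562 to 0.981 FPKM in controls. Groups overlapped, and it was called in 0 of the 3 comparisons with values as deposited. With median centring it was below control at day 7 (-0.42, adjusted p = 0.00463) and at day 3 (-0.56, adjusted p = 0.000735).

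**Figure D5:**
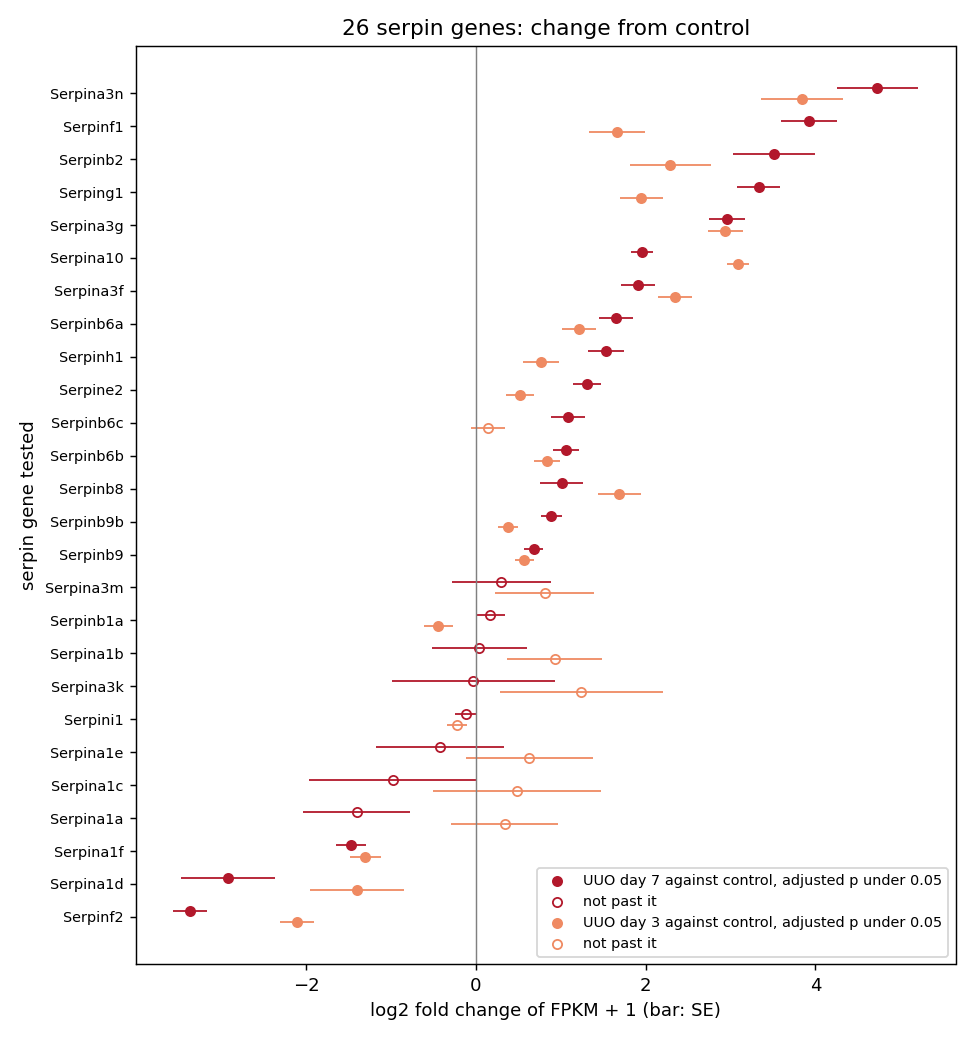
Log2 fold change of FPKM + 1 against control (x axis, bars are SE) for 26 tested serpins (rows, ordered by day 7), at UUO day 7 (upper point of each pair) and UUO day 3 (lower point); filled points have an adjusted p under 0.05. The range at day 7 is from -3.36 in Serpinf2 to 4.73 in Serpina3n, and open points with wide bars are liver-type serpins.

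Of the 9 serpins that differed between the days, the 7 higher at day 7 were Serpinf1, Serping1, Serpinb6c, Serpine2, Serpinh1, Serpinb1a and Serpinb9b, and the 2 lower were Serpinf2 and Serpina10. Of the fibroblast markers, 7 of 8 rose between the days, and every day 7 library had a higher sum of them than any day 3 library. Of the macrophage markers, 0 of 8 symbols were called between the days. The part of either cell type in these differences was not tested.

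Partners of the serpins, their target proteases and receptors, were described from a list of 43 genes, of which 39 were in the table and all 39 were tested. At day 7 against control 20 rose and 10 fell (76.9% called, near the 69.8% of all genes, median log2 fold change 0.67). At day 3 against control 23 rose and 9 fell (82.1%, against 65.3% of all genes, median 0.73), and between the days 6 rose and 6 fell (30.8%, against 15.7%, median 0.01). Lrp1, the receptor that clears serpin and protease complexes, averaged 46.7 ± 18.6 FPKM at day 7 and 28.6 ± 2.49 FPKM at day 3, against 2.66 ± 0.186 FPKM in controls (adjusted p = 1.06e-07 and 6.63e-07). Its tubular relative Lrp2 (megalin) was the reverse, with 3.94 ± 1.04 and 13.2 ± 5.61 FPKM, against 56.7 ± 12 FPKM (adjusted p = 1.71e-07 and 1.84e-05).

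Among the proteases of the list, Mmp9, a matrix gelatinase, rose at both days to 11.6 ± 4.68 and 5.31 ± 2.13 FPKM, against 0.223 ± 0.1 FPKM in controls (adjusted p = 8.41e-07 and 2.13e-05). Casp1, the inflammatory caspase, averaged 15.3 ± 3.27 and 15.2 ± 5.40 FPKM, against 1.79 ± 0.252 FPKM, and rose at day 3 by 2.48 (adjusted p = 3.55e-06). The largest fall by level was in Klk1, tissue kallikrein, with 175 ± 28.1 FPKM at day 7 and 179 ± 59.8 FPKM at day 3, against 1690 ± 82.2 FPKM in controls (log2 fold changes -3.28 and -3.30, adjusted p = 1.68e-07 and 2.76e-07). The epithelial proteases Hpn (hepsin) and Prss8 (prostasin) also fell at both days, to 7.61 ± 0.544 and 15.0 ± 3.95 FPKM, against 31.3 ± 5.92 FPKM, and to 29.8 ± 3.98 and 53.7 ± 16.8 FPKM, against 104 ± 22.4 FPKM.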

How the data were processed

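RNA from 11 libraries was sequenced after Trizol extraction and a stranded library preparation, per the labels' protocols. The authors deposited FPKM values per gene and per transcript, per the file headers. Per the submitters' processing notes, the genome was GRCm38 and the tools were cutadapt, HISAT2 and StringTie; versions are not stated. Counts were not used, and whole reads could not be recovered from the lowest values, so depth is unknown.

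Groups and replicate numbers came from sample titles. Serpins and the partner, collagen, liver and marker lists were chosen with earlier results of these data known. The 13428 genes that averaged 0.5 FPKM or more were fitted on log2(FPKM + 1) over all 11 libraries with limma 3.58.1 in R 4.3.3, with a mean-variance trend. Adjusted p-values are Benjamini-Hochberg over all genes tested. The method was tested on simulated data. Of the 31 serpins, 1 is counted in totals and not reported on its own here; the others are described, with each library's value where a group mean reached 5 FPKM or a test was passed. Genes outside the family are up to 4 per list and direction with the largest called changes, except those said to be named after their values were seen. Same-numbered libraries deviated together with correlations of -0.138 to 0.428, so numbers were not taken as pairs. Coordinates are the deposited ones, which match GENCODE vM21. Promoters are from RefSeq (GRCm38.p6). Shared stretches are 50-base words also found in another gene's transcripts. Alternatives were another pseudocount, other minimums, median centring, quantile normalization, TPM, transcript sums, other fits and each library left out.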

Additional observations from a re-analysis of the deposited data

Results flagged for a closer look

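In groups of 4 libraries, 62 sets of serpin values were examined for a library far from the others, and 12 had one. Chance gives about 1 in 20 where sets are independent and values normally spread. These sets share libraries, so the 12 cannot be judged against that rate. Day 3 replicate 1 was the far library in 9 of them: Serpina1a at 21.8 FPKM, Serpina1b at 16.8, Serpina1c at 35.8, Serpina1d at 14.9, Serpina1e at 15.0, Serpina3k at 32.0, Serpina3m at 7.57, Serpinc1 at 1.78 and Serpind1 at 2.19 FPKM. The other 3 were at day 7: Serpinb2 at 40.6 FPKM in replicate 2, Serpinb6a at 10.6 FPKM in replicate 3, and Serpina1e at 0.115 FPKM in replicate 4, where the other libraries of the group were listed at 0.

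The change from control differed between the UUO days in 9 serpins by limma, as log2 day 7 minus day 3. The values were 2.26 for Serpinf1, 1.38 for Serping1, 0.95 for Serpinb6c, 0.79 for Serpine2, 0.76 for Serpinh1, 0.62 for Serpinb1a, 0.52 for Serpinb9b, -1.13 for Serpina10 and -1.26 for Serpinf2.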

How the results depend on the processing

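For the 27 tested serpins, 81 log2 fold changes were recomputed under up to 22 alternatives each. The total counts of serpins, partner genes and collagen folding genes called stayed within 1.5 times. The serpins called lower did not: without day 3 replicate 1 they were 6 at day 7, 6 at day 3 and 5 between the days, against 3, 4 and 2 with it, and 4, 4 and 5 when the 4 genes that reach the minimum only through it were also left out. Of the 47 called serpin differences, 39 kept their call under every alternative, 8 lost it under at least one, and 0 changed sign. Leaving out each library in turn gave 19 to 23 serpins called at day 7 against control, 16 to 21 at day 3 and 7 to 12 between the days. Values that were not called and turned sign were as follows. With median centring Serpina1b was -0.26, Serpina3m -0.00 and Serpinb1a -0.13 at day 7, and Serpinb6c -0.20 at day 3. With quantile normalization Serpina1b was -0.30 and Serpinb1a -0.03 at day 7, and Serpinb6c -0.03 at day 3. Other turns were Serpina1b at -0.07 from the transcript table, Serpini1 at 0.13 in TPM (both day 7), and Serpina1c at -0.21 with a pseudocount of 0.1 (day 3). Leaving out single libraries gave Serpina1a -0.46 to 0.77, Serpina1c -0.76 to 0.97, Serpina1e -0.34 to 0.99 and Serpina3k -0.02 to 1.66 at day 3, where the lowest value of each is that without day 3 replicate 1. It also gave Serpina1b -0.05 to 0.09 at day 7, and Serpina3g -0.09 to 0.19 and Serpina3m -0.79 to 0.25 between the days. The cause of the other turns was not tested. Median log2 fold changes of all genes were 0.28 and 0.26 (day 7 and day 3) as deposited, 0.77 and 0.70 in TPM and -0.03 and -0.07 with median centring. With the replicate number as a block, 19, 19 and 12 serpins were called at day 7, at day 3 and between the days, against 19, 19 and 9 without it; the added calls included Serpinb2 (1.23, adjusted p = 0.0346) and Serpinb8 (-0.68, adjusted p = 0.0374), and Serpina3k was 0.19 at day 7; 6 of 10 same-numbered pairs correlated above 0.1, and in 11 of 20 comparisons of a library with another group the best match had its own number. Depth is unknown, so small differences in genes under 1 FPKM are weakly grounded.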

Other observations

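Single transcripts of 2 other serpins were uneven within a group, in values of the deposited transcript table that were not tested. Of summed Serpinf2 transcript FPKM, transcript 202 took 79.3% in day 7 replicate 3 and at most 0.946% in any other library, although the gene level of that library (6.30 FPKM) lay within its group. Of summed Serpinb6a transcript FPKM, transcript 201 took 51.7 to 73.2% in the day 7 libraries and 62.0 to 70.5% in the day 3 libraries, against 62.7, 7.33 and 0% in controls. Transcript 203 took at most 0.408% in any UUO library, against 0.0395, 68.0 and 66.3% in controls, while the gene level of the 3 controls ran only from 4.81 to 4.96 FPKM.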
